A study of Mus musculus with 12 samples.

Results

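Gene expression in inflammatory (M1) macrophages was compared between wildtype mice and *Mirc11-/-* mice, which lack the microRNA cluster *Mirc11* with the genes of miR-24-2, miR-27a and miR-23a. The comparison rests on 6 of the 12 RNA sequencing libraries of the series, 3 wildtype and 3 *Mirc11-/-*, chosen as those whose titles end in M1. The other 6 libraries, 3 of each genotype, are titled M2 and serve here for 1 test of a difference. Macrophages were grown for 7 d from bone marrow of C57BL/6 mice aged 6 to 8 weeks, in medium containing supernatant of L929 cells as a source of the growth factor M-CSF. M1 cells of both genotypes then received 100 ng/ml lipopolysaccharide (LPS) and interferon gamma for 24 h, whereas M2 cells received 20 ng/ml IL-4 and 20 ng/ml IL-13. For interferon gamma the labels give 50 ng/ml under their protocols but 10 ng/ml under treatment. The mice are labelled mirn23a-/-, with no Cre or conditional allele named, so the cells lacked the cluster throughout culture as well as during polarization. The titles of the wildtype M1 libraries are Wt2260M1, Wt2261M1 and Wt2262M1, and those of *Mirc11-/-* M1 libraries Ako2271M1, Ako2272M1 and Ako2273M1. The labels do not say what the numbers in the titles stand for, nor that libraries of a group came from separate animals, so p-values measure the spread between these libraries, which may be technical.

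For libraries Wt2261M1, Wt2262M1 and Ako2273M1, the treatment field names the M2 cytokines although the title says M1. *Nos2*, which marks M1 cells and makes nitric oxide, ranged from 938 to 1630 FPKM (fragments per kilobase of transcript, scaled to the mapped fragments of a library) in all 6 M1-titled libraries, and reached 2.26 FPKM at most in those titled M2. Groups follow the titles, and results are also given for the 6 libraries of the series whose treatment field matches the title (the libraries whose labels agree). In M1 these are 1 wildtype library, Wt2260M1, and 2 *Mirc11-/-* libraries, Ako2271M1 and Ako2272M1. The lone wildtype library was assumed to vary like the groups with 2 libraries, so a call kept in this setting adds little.

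MicroRNAs are short RNAs that pair through their seed, bases 2 to 8, with sites in the 3' untranslated region (UTR) of messenger RNAs and lower the amount or translation of these messages. The 3 microRNAs of the cluster come from a single primary transcript and are abundant in myeloid cells. M1 polarization is the state in which macrophages exposed to bacterial products and interferon gamma make nitric oxide and inflammatory cytokines and present antigen. The mature sequences of the cluster, from RefSeq (GRCm38.p6, chromosome 8, plus strand), are shown with the seed in capitals, because the seed sites described at the end are defined by them.
miR-23a-3p: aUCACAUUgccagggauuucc
miR-27a-3p: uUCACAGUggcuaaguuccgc
miR-24-3p: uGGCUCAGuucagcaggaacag
The hairpins lie close together, with the mature strands at chr8:84208563-84208583, chr8:84208727-84208747 and chr8:84208875-84208896. The genome holds other copies of some of these seeds on chromosome 13, where the same miR-24-3p is encoded by Mir24-1 and a close relative by Mir27b.
miR-27b-3p: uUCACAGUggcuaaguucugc
These copies were outside the deleted cluster, and their levels were not measured. The deposited FPKM do not check the deletion. *Mir23a* and *Mir24-2* were listed at 0 in all 6 M1 libraries, and *Mir27a* was listed at 101.5 FPKM in wildtype library Wt2261M1 and at 0 in the other 5.

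The M1 libraries were alike in depth and composition. Relative to wildtype library Wt2260M1, step sizes among weakly expressed genes placed the other 5 at 1.03 to 1.27 times its depth, while depth in reads is unknown. Between 14366 and 14708 genes had a value above 0. Across genes, libraries of the same genotype correlated at 0.987 to 0.997 on the log2 scale, and libraries of different genotype at 0.984 to 0.989. Summed FPKM of 17 macrophage markers was 14000 to 15160 in wildtype and 14290 to 15290 in *Mirc11-/-* libraries. Markers of fibroblasts and red cells had no member at 1 FPKM or more. Of 13 neutrophil markers, 5 were tested. Their sum lay in the range of 1471 to 1517 FPKM for wildtype and of 1402 to 1540 FPKM for *Mirc11-/-*, nearly all of it *Lcn2*, while *Elane* was at 0 in every library and *S100a9* at 0.0763 FPKM at most. *Cd3e* of T cells was at 0.147 FPKM at most and *Flt3* of dendritic cells at 0.0383 FPKM at most. Because RNA was taken from whole cultures, fewer cells of a kind and less RNA per cell cannot be told apart.

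Of 9735 genes that averaged 1 FPKM or more across the 6 libraries, 927 (9.52%) differed between genotypes at an adjusted p below 0.05 in limma, with Benjamini-Hochberg adjustment over all 9735. In *Mirc11-/-* cells, 444 genes (4.56%) were higher and 483 (4.96%) lower. The median change of all genes on the log2(FPKM + 1) scale was -0.02, and that of the size of change among called genes was 0.38. Only 38 called genes changed by 1 or more on this scale, 21 of them upward. The 3 wildtype and 3 *Mirc11-/-* values did not overlap in 3080 genes (31.6%), among them all 927 called genes. A lack of overlap in a called gene is therefore no further support for its call. The scale understates folds of weakly expressed genes. With libraries rescaled by the median of ratios, 937 genes were called, of which 553 were higher (59.0%, against 47.9% without rescaling). The count moved with single libraries. It was 512 without Wt2260M1, 432 without Wt2261M1, 910 without Wt2262M1, 430 without Ako2271M1, 207 without Ako2272M1 and 572 without Ako2273M1. With the 6 libraries whose labels agree it was 517.

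**Figure D1:**
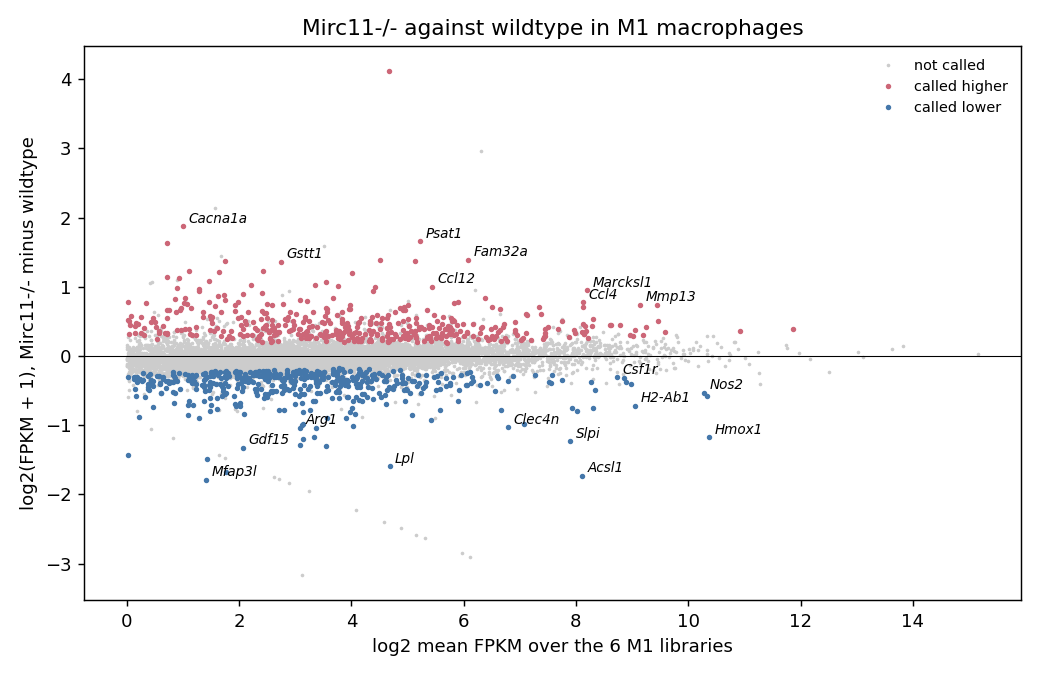
Each point is 1 of 9735 genes, with the log2 of its mean FPKM over the 6 M1 libraries on the x axis and its change in log2(FPKM + 1), *Mirc11-/-* minus wildtype, on the y axis. Coloured points are the 444 genes called higher and 483 called lower; *Acsl1* lies at -1.73 and *Psat1* at 1.66, and the called point near 4 is the small RNA gene *Mir142b*, listed at 0 in 2 wildtype libraries.

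Below, the 3 wildtype values are always given in the order Wt2260M1, Wt2261M1 and Wt2262M1, and the 3 *Mirc11-/-* values in the order Ako2271M1, Ako2272M1 and Ako2273M1. Values after ± are SD with n = 3, and adjusted p-values are those of limma over all 9735 genes. Counts of called list members are to be read against the shares of all genes, 9.52% called, 4.56% higher and 4.96% lower. Counts at an unadjusted limma p under 0.05 are to be read against 2561 of all 9735 genes. *Ciita*, *H2-DMb1*, *B2m*, *Clec7a*, *Trem2*, *Tlr4*, *Gstt3*, *Cd40*, *Icam1*, *Nfkbia*, *Dusp1*, *Dusp2*, *Fos*, *Nek6* and *Lpcat1* were named after their values were seen, and the other genes by a rule.

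Both the lipase and the main activating enzyme for fatty acids fell in *Mirc11-/-* M1 cells. *Acsl1*, which activates long-chain fatty acids by joining them to coenzyme A and is induced by LPS in macrophages, was at 429, 484 and 360 FPKM in wildtype and at 127, 115 and 138 FPKM in *Mirc11-/-* libraries. The groups were far apart, and the mean fell 3.35-fold (log2 change -1.73, SE 0.12, adjusted p = 0.00031). *Lpl*, the lipase that frees fatty acids from circulating triglyceride, was at 39.3, 33.6 and 44.3 FPKM in wildtype and at 10.9, 11.1 and 14.8 FPKM in *Mirc11-/-* libraries. All *Mirc11-/-* values lay below 15 FPKM, and the mean fell 3.18-fold (adjusted p = 0.0007). *Fabp4*, a carrier of fatty acids in the cytosol, fell from 6.27 ± 0.28 to 4.24 ± 0.55 FPKM (adjusted p = 0.013). *Lpin2*, a phosphatidic acid phosphatase, fell from 28.8 ± 1.5 to 24.6 ± 0.42 FPKM (adjusted p = 0.047). These 4 were the called members among 25 tested genes of fatty acid uptake, activation and storage (16.0%, against 9.52% of all genes). The other 21 did not pass, and the list's median change was -0.05, against -0.02 over all genes. Of 18 genes of cholesterol export only *Soat1*, which esterifies cholesterol, was called, falling from 50.6 ± 4.7 to 41.0 ± 1.4 FPKM (adjusted p = 0.045), while *Abca1*, the cholesterol exporter, did not pass (48.2 ± 5.7 and 39.3 ± 1.6 FPKM, adjusted p = 0.084, and 0.025 without Wt2260M1). The calls of *Acsl1* and *Lpl* held with any single library left out. That of *Fabp4* ended without Wt2260M1 (adjusted p = 0.051) or Ako2272M1 (0.053), and those of *Lpin2* and *Soat1* ended without each of 5 libraries (all but Wt2260M1 for *Lpin2*, adjusted p up to 0.15; all but Wt2262M1 for *Soat1*, up to 0.18). *Acsl1* and *Lpl* lie on chromosome 8, as the cluster does.

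**Figure D2:**
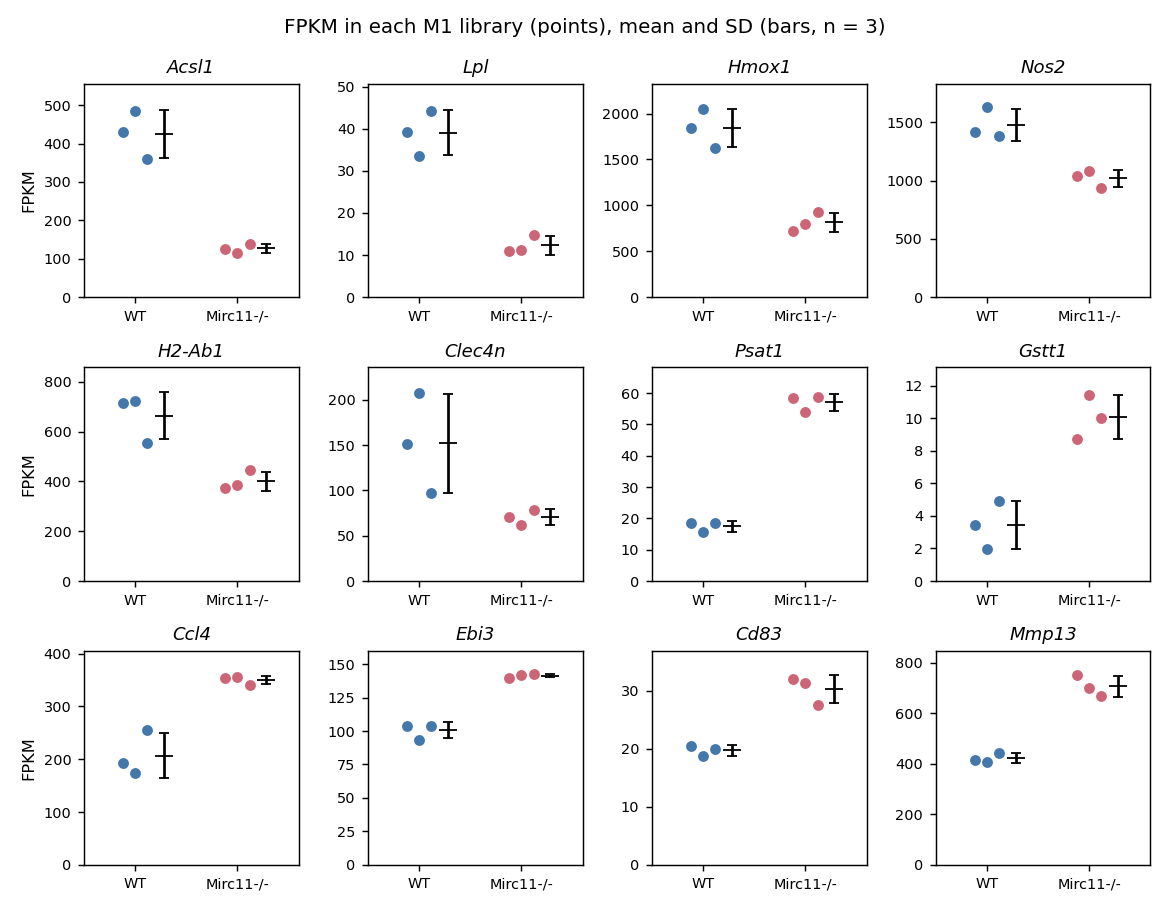
Points are the FPKM of 12 genes in each of the 3 wildtype (blue) and 3 *Mirc11-/-* (red) M1 libraries, with the mean and SD as a bar beside them; every y axis starts at 0. In each panel, as in all called genes, the groups do not overlap, from *Acsl1* (425 against 127 FPKM) to *Mmp13* (422 against 707 FPKM).

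MHC class II displays peptides from outside the cell to CD4+ T cells, and 6 of its 14 tested genes fell. *H2-Ab1*, the beta chain of I-A, was at 715, 724 and 554 FPKM in wildtype and at 375, 384 and 445 FPKM in *Mirc11-/-* libraries. *H2-Aa*, its alpha chain, was at 334, 378 and 272 FPKM in wildtype and at 164, 171 and 231 FPKM in *Mirc11-/-* libraries. *H2-Eb1*, the beta chain of I-E, was at 135, 149 and 102 FPKM in wildtype and at 65.2, 67.9 and 88.8 FPKM in *Mirc11-/-* libraries. In each of the 3 genes, wildtype Wt2262M1 was the lowest of its group, *Mirc11-/-* Ako2273M1 the highest of its own, and the groups did not overlap. The means fell 1.65-fold, 1.74-fold and 1.74-fold (adjusted p = 0.012, 0.020 and 0.023). *Cd74*, the invariant chain that fills the class II groove during assembly, fell from 1543 ± 178 to 1029 ± 124 FPKM (adjusted p = 0.021). *Ciita*, the transcriptional activator of class II genes, fell from 4.99 ± 1.3 to 2.67 ± 0.64 FPKM (adjusted p = 0.038). *March1*, a ubiquitin ligase that removes class II from the cell surface, fell from 57.7 ± 2.4 to 45.9 ± 0.98 FPKM (adjusted p = 0.012). Of 14 tested members of the list, these 6 were lower (42.9%, against 4.96% of all genes) and 0 higher, with a median change of -0.36 against -0.02 over all genes. *H2-DMb1*, which helps to load peptides, did not pass (44.1 ± 6.4 and 30.1 ± 5.7 FPKM, adjusted p = 0.055), but passed in 5 of 17 alternatives, among them without Wt2262M1 or Ako2273M1 (0.032 for each). The H2 genes resemble each other, so reads may have been shared among them. The calls of *H2-Ab1* and *March1* ended without Ako2272M1 (adjusted p = 0.061 and 0.056). Those of *H2-Aa*, *H2-Eb1*, *Cd74* and *Ciita* ended without Wt2260M1, Wt2261M1, Ako2271M1 or Ako2272M1 (0.063 to 0.089, 0.070 to 0.095, 0.072 to 0.10 and 0.073 to 0.12).

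The core promoters of class II genes carry an inverted CCAAT element, the Y box, that is bound by the factor NF-Y. Windows of 120 bases from RefSeq (GRCm38.p6) are shown for the 2 chain genes with an entry, on the gene's strand, with CCAAT and its reverse complement ATTGG in capitals.
H2-Aa, minus strand, chr17:34287844-34287963: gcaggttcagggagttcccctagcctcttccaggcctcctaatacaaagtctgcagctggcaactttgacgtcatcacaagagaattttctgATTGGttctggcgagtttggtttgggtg
H2-Eb1, plus strand, chr17:34305727-34305846: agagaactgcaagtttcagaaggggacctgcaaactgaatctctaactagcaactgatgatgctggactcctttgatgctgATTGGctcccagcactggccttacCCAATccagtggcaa
In *H2-Aa* an ATTGG match starts 48 bases before the annotated start. In *H2-Eb1* an ATTGG match starts 59 bases before it, and a match in the other orientation, CCAAT, 35 bases before it. Either orientation occurred in 37.4% of all 32851 promoter windows of 300 bases. For the class II list, 14 windows of 11 tested genes were used, and 10 of these windows held it. No window of *Cd74*, *H2-Ab1* or *Ciita* was used, so the class II count does not cover all called members of the list.

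Few of the remaining interferon and antigen presentation genes were called. None of 21 MHC class I presentation genes and none of 17 interferon gamma-induced GTPases was called by limma. At an unadjusted limma p under 0.05 there were 1 and 3, each lower. Changes were below 0 in 11 of the 21 and 15 of the 17, against 5489 of all 9735 genes. The median changes were -0.01 and -0.06, against -0.02 over all genes. *B2m*, the light chain of class I, was at 8107 ± 400 and 8480 ± 546 FPKM in wildtype and *Mirc11-/-* cells (adjusted p = 0.71). Of 35 antiviral interferon-stimulated genes, 1 was called. *Oasl1*, which limits translation of an interferon regulatory factor, rose from 234 ± 26 to 322 ± 20 FPKM (adjusted p = 0.023), and its call ended without Wt2260M1, Ako2272M1 or Ako2273M1 (adjusted p = 0.052 to 0.11) and in the libraries whose labels agree (0.16).

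Most of the called receptors for microbial sugars, lipids and dying cells were lower. *Clec4n* (Dectin-2), a lectin that binds fungal mannans, was at 151, 207 and 97.3 FPKM in wildtype and at 71.1, 62.2 and 79.0 FPKM in *Mirc11-/-* libraries. The wildtype libraries differed by more than 2-fold among themselves, and the groups did not overlap (2.15-fold lower, adjusted p = 0.034). *Clec7a* (Dectin-1), a receptor for fungal glucans, fell from 11.5 ± 3.5 to 6.02 ± 1.4 FPKM (adjusted p = 0.047). *Cd33*, an inhibitory receptor for sialic acid, fell from 9.60 ± 0.21 to 6.29 ± 0.61 FPKM (adjusted p = 0.0047). *Trem2*, a lipid-sensing receptor, fell from 44.6 ± 6.0 to 30.6 ± 3.4 FPKM (adjusted p = 0.025). *Mertk*, a receptor for apoptotic cells, fell from 80.7 ± 5.2 to 62.6 ± 1.4 FPKM (adjusted p = 0.013). *Stab1*, a scavenger receptor, fell from 45.9 ± 4.4 to 33.7 ± 0.42 FPKM (adjusted p = 0.012), and *Scarb2*, a lysosomal membrane receptor, from 38.3 ± 1.1 to 29.5 ± 1.2 FPKM (adjusted p = 0.0079). *Cd5l*, a secreted scavenger protein of macrophages, was the exception and rose 2.88-fold, from 2.79 ± 0.36 to 8.03 ± 2.1 FPKM (adjusted p = 0.0041). In all, 8 of 28 tested scavenger and lectin receptors were lower and 1 higher, with a median change of -0.10. The calls of *Cd33* and *Cd5l* held with any library left out. Those of *Mertk*, *Stab1* and *Scarb2* ended without Ako2272M1 (adjusted p = 0.076, 0.058 and 0.053), that of *Clec4n* without each library but Wt2262M1 (0.065 to 0.13), and those of *Clec7a* and *Trem2* without Wt2260M1, Wt2261M1, Ako2271M1 or Ako2272M1 (0.11 to 0.16 and 0.080 to 0.11).

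Among 30 tested Toll-like receptors and their adaptors, 3 were lower and 2 higher (16.7% called, against 9.52% of all genes). *Tlr2*, the receptor for bacterial lipopeptides, was at 31.5, 32.1 and 30.2 FPKM in wildtype and at 22.7, 22.6 and 23.4 FPKM in *Mirc11-/-* libraries. Both groups were tight and apart by 1.37-fold (adjusted p = 0.003). *Tlr4*, the receptor for the LPS used here, fell from 14.7 ± 0.73 to 12.1 ± 0.49 FPKM (adjusted p = 0.026). *Wdfy1*, an endosomal protein that takes part in signalling by *Tlr3* and *Tlr4*, was at 11.7, 12.03 and 13.8 FPKM in wildtype and at 4.99, 4.39 and 4.15 FPKM in *Mirc11-/-* libraries. Its mean fell 2.77-fold (adjusted p = 0.00023). *Tlr9*, the endosomal receptor for bacterial DNA, rose from 22.3 ± 4.3 to 36.4 ± 5.0 FPKM (adjusted p = 0.024), and *Ticam1* (TRIF), the adaptor of *Tlr3* and *Tlr4*, from 12.7 ± 0.46 to 15.6 ± 0.47 FPKM (adjusted p = 0.016). The calls of *Tlr2* and *Wdfy1* held with any library left out. That of *Tlr4* ended without each library but Wt2260M1 (adjusted p = 0.055 to 0.090), that of *Tlr9* without Wt2260M1, Wt2261M1, Ako2272M1 or Ako2273M1 (0.070 to 0.097) and that of *Ticam1* without Wt2261M1 or Ako2272M1 (0.057 and 0.092). In the libraries whose labels agree, *Tlr4* (0.21) and *Ticam1* (0.17) did not pass.

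Of the enzymes that use arginine, *Nos2* and *Arg1* fell. *Nos2*, which makes nitric oxide from it, was at 1419, 1630 and 1379 FPKM in wildtype and at 1038, 1083 and 938 FPKM in *Mirc11-/-* libraries, 1.45-fold lower (adjusted p = 0.014). *Arg1*, which cleaves arginine to urea and ornithine and marks M2 cells, was at 11.5, 15.9 and 8.30 FPKM in wildtype and at 5.03, 5.48 and 4.84 FPKM in *Mirc11-/-* libraries, 2.33-fold lower (adjusted p = 0.015). No value of either gene overlapped between the groups, as was so for every called gene. *Ass1*, which rebuilds arginine from citrulline, did not pass (255 ± 20 and 235 ± 5.4 FPKM, adjusted p = 0.36). Of 11 tested genes of nitric oxide and arginine metabolism, these 2 were lower and none was higher by limma. At an unadjusted limma p under 0.05, 3 were lower and none higher. The call of *Nos2* ended without Ako2271M1 or Ako2272M1 (adjusted p = 0.051 and 0.053) and in the libraries whose labels agree (0.16). That of *Arg1* ended without Wt2260M1, Ako2271M1 or Ako2272M1 (0.055 for each).

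Single genes of serine synthesis, haem breakdown and glutathione conjugation changed by over 2-fold. *Psat1*, an enzyme of serine synthesis, was at 18.4, 15.5 and 18.4 FPKM in wildtype and at 58.5, 53.9 and 58.7 FPKM in *Mirc11-/-* libraries. The mean rose 3.27-fold (log2 change 1.66, SE 0.08, adjusted p = 4.86e-05). *Nupr1*, a stress-induced nuclear protein, rose from 76.8 ± 7.4 to 124 ± 11 FPKM (adjusted p = 0.0058), and *Sesn2*, a stress-induced inhibitor of mTORC1, from 14.0 ± 0.15 to 16.6 ± 0.68 FPKM (adjusted p = 0.028). *Gdf15*, a secreted stress cytokine, fell 3.33-fold, from 6.47 ± 1.6 to 1.94 ± 0.17 FPKM (adjusted p = 0.0023). Of 28 tested serine, one-carbon and ATF4 target genes, 4 were higher and 2 lower, with a median change of 0.02. *Hmox1*, which degrades haem, was among the most abundant genes called, at 1846, 2044 and 1628 FPKM in wildtype and at 724, 797 and 927 FPKM in *Mirc11-/-* libraries. It fell 2.25-fold (adjusted p = 0.0016). *Prdx2*, a peroxidase, fell from 180 ± 14 to 90.5 ± 8.6 FPKM (adjusted p = 0.001), and *Slc25a37* (mitoferrin), which brings iron into mitochondria, from 60.4 ± 1.4 to 34.7 ± 1.9 FPKM (adjusted p = 0.00053).

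The theta class glutathione transferases rose together. *Gstt1* was at 3.43, 1.98 and 4.91 FPKM in wildtype and at 8.72, 11.5 and 10.0 FPKM in *Mirc11-/-* libraries. *Gstt4* rose from 1.47 ± 0.64 to 5.24 ± 0.68 FPKM, *Gstt2* from 2.63 ± 0.23 to 5.75 ± 0.59 FPKM and *Gstt3* from 2.76 ± 0.72 to 4.82 ± 0.42 FPKM (adjusted p = 0.006, 0.0011 and 0.026, against 0.011 for *Gstt1*). *Ddt*, which lies on the same chromosome 10, rose from 60.0 ± 9.6 to 107 ± 5.1 FPKM (adjusted p = 0.0058). The *Gstt* genes resemble each other in sequence, so reads may have been shared among them, and they are not 4 independent measurements. *G6pdx*, which makes NADPH, rose from 106 ± 1.9 to 135 ± 5.1 FPKM (adjusted p = 0.0097). Of 36 tested genes of glutathione metabolism and NRF2 response, 5 were higher and 2 lower, with a median change of -0.035. The calls of *Gstt1* and *G6pdx* ended without Ako2272M1 (adjusted p = 0.053 and 0.055), that of *Gstt3* without Ako2271M1, Ako2272M1 or Ako2273M1 (0.055 to 0.11), and that of *Sesn2* without each of the 6 libraries (0.052 to 0.15). Those of *Psat1*, *Hmox1*, *Gdf15*, *Prdx2*, *Slc25a37*, *Nupr1*, *Gstt2*, *Gstt4* and *Ddt* held with any library left out.

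Genes of central carbon metabolism were called about as often as all genes (9.52%). Of 31 tested glycolysis and HIF-1 target genes, 3 were lower (9.68%) and none higher. At an unadjusted limma p under 0.05, 9 were lower and none higher. Changes were below 0 in 25 of the 31, against 5489 of all 9735 genes, with a median of -0.11. *Aldoc*, an aldolase, fell from 11.9 ± 1.4 to 5.48 ± 0.74 FPKM (adjusted p = 0.0018), *Ankrd37*, a hypoxia-induced gene, from 21.8 ± 1.9 to 14.7 ± 2.3 FPKM (adjusted p = 0.023) and *P4ha1*, a collagen prolyl hydroxylase, from 75.3 ± 0.88 to 63.8 ± 0.24 FPKM (adjusted p = 0.023). Of 28 tested genes of the citric acid cycle, 3 were lower (10.7%). *Idh1*, a cytosolic isocitrate dehydrogenase, fell from 16.1 ± 1.2 to 11.7 ± 1.5 FPKM (adjusted p = 0.024). *Irg1*, which makes itaconate in M1 cells, did not pass (1681 ± 78 and 1938 ± 85 FPKM, adjusted p = 0.13). Only *Aldoc* kept its call with any library left out. *P4ha1* lost it without each library but Wt2262M1 (adjusted p = 0.055 to 0.11), *Ankrd37* without Wt2260M1, Wt2261M1 or Ako2272M1 (0.066 to 0.077) and *Idh1* without Wt2260M1, Wt2261M1, Ako2271M1 or Ako2272M1 (0.077 to 0.11).

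**Figure D3:**
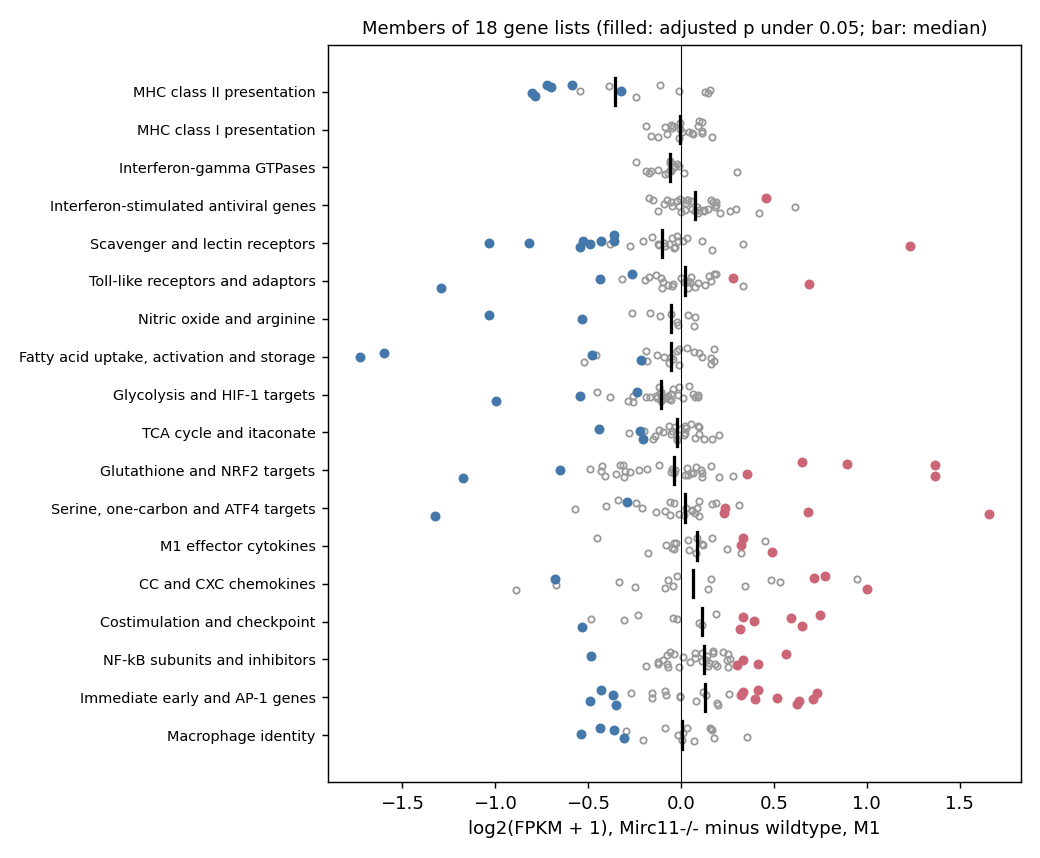
Each circle is a tested member of 1 of 18 gene lists, placed by its change in log2(FPKM + 1), *Mirc11-/-* minus wildtype, in M1; filled red circles were called higher, filled blue circles lower, and the bar is the list's median. The median lay at -0.36 for MHC class II presentation and between -0.11 and 0.13 for the other 17 lists.

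Of 20 tested M1 cytokine genes, 3 were higher (15.0%, against 4.56% of all genes) and none lower. At an unadjusted limma p under 0.05, 6 were higher and 1 lower. *Ebi3*, the partner chain of interleukin 27, was at 104, 93.6 and 104 FPKM in wildtype and at 140, 142 and 142 FPKM in *Mirc11-/-* libraries. It rose 1.41-fold (adjusted p = 0.0042). *Il27*, the other chain, rose from 28.1 ± 2.0 to 35.7 ± 3.0 FPKM (adjusted p = 0.034), and *Il18* from 9.59 ± 0.99 to 12.2 ± 0.68 FPKM (adjusted p = 0.037). The classical M1 cytokines did not pass. *Tnf* was at 286 ± 15 and 321 ± 25 FPKM (adjusted p = 0.22), *Il6* at 95.4 ± 18 and 101 ± 13 FPKM (0.75), *Il1b* at 1667 ± 110 and 1718 ± 216 FPKM (0.85) and *Il12b* at 59.0 ± 13 and 65.0 ± 20 FPKM (0.79). *Il10*, the main anti-inflammatory cytokine of macrophages, was at 8.52 ± 1.6 and 11.96 ± 1.2 FPKM and lay just outside the threshold (adjusted p = 0.0504), and it passed in 6 of 17 alternatives (0.011 without Wt2262M1). *Ebi3* kept its call with any library left out, whereas *Il27* and *Il18* lost it without each library but Wt2262M1 (adjusted p = 0.052 to 0.11 and 0.063 to 0.15).

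Of 18 tested chemokines, 3 were higher and 1 lower (22.2% called, against 9.52% of all genes). *Ccl4* (MIP-1 beta), an attractant of monocytes and T cells, was at 192, 173 and 255 FPKM in wildtype and at 355, 355 and 341 FPKM in *Mirc11-/-* libraries, 1.70-fold higher (adjusted p = 0.012). *Ccl12* and *Ccl2*, ligands of the monocyte receptor CCR2, rose from 29.3 ± 10 to 57.7 ± 9.5 FPKM and from 124 ± 32 to 201 ± 32 FPKM (adjusted p = 0.036 and 0.049). The pair are similar in sequence, and reads may have been shared between them. *Cxcl1*, which attracts neutrophils, fell from 11.04 ± 2.7 to 6.43 ± 0.74 FPKM (adjusted p = 0.028). *Ccl4* lost its call without Ako2272M1 (adjusted p = 0.056), *Ccl2* and *Ccl12* without each library but Wt2262M1 (0.056 to 0.17 and 0.057 to 0.13), and *Cxcl1* without Ako2271M1, Ako2272M1 or Ako2273M1 (0.060 to 0.11).

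Of 15 tested surface proteins through which macrophages instruct T cells, 6 were higher and 1 lower, with a median change of 0.12. *Cd83*, a marker of activated antigen-presenting cells, was at 20.5, 18.7 and 20.0 FPKM in wildtype and at 32.1, 31.4 and 27.6 FPKM in *Mirc11-/-* libraries (1.53-fold higher, adjusted p = 0.0035). *Icosl*, the ligand of ICOS on T cells, rose from 3.95 ± 0.72 to 7.29 ± 0.94 FPKM (adjusted p = 0.01), and *Slamf1*, a self-binding receptor, from 3.93 ± 0.64 to 6.74 ± 0.99 FPKM (0.014). *Cd40*, which receives help from T cells, rose from 154 ± 10 to 195 ± 16 FPKM (0.038), and the adhesion molecule *Icam1* from 251 ± 14 to 314 ± 8.3 FPKM (0.022). *Havcr2* (TIM-3), an inhibitory receptor, fell from 4.20 ± 0.13 to 2.60 ± 0.24 FPKM (0.0041). *Cd86*, the ligand of CD28, did not pass (41.6 ± 1.6 and 40.9 ± 0.55 FPKM, adjusted p = 0.83). *Cd83* and *Havcr2* kept their calls with any library left out. *Icosl* lost its call without Ako2272M1 (adjusted p = 0.053), *Slamf1* without Wt2260M1 or Ako2272M1 (0.055 for both), *Cd40* without each library but Ako2273M1 (0.058 to 0.15) and *Icam1* without Wt2261M1, Ako2271M1 or Ako2272M1 (0.064 to 0.12). In the libraries whose labels agree, *Cd40* and *Icam1* did not pass (0.060 and 0.063).

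Among NF-kB and immediate early genes more were called higher than lower. Of 34 tested NF-kB subunits and inhibitors, 4 were higher and 1 lower (median change 0.12). *Tnip3*, an inhibitor of NF-kB activation, was at 40.2, 36.5 and 42.7 FPKM in wildtype and at 61.9, 59.6 and 56.5 FPKM in *Mirc11-/-* libraries, 1.49-fold higher (adjusted p = 0.0042). *Nfkbia*, which holds NF-kB in the cytosol, rose from 447 ± 28 to 552 ± 21 FPKM (0.037), the subunit *Nfkb2* from 68.9 ± 1.5 to 87.1 ± 3.7 FPKM (0.012) and the adaptor *Traf1* from 69.0 ± 4.7 to 92.5 ± 8.7 FPKM (0.022). *Ikbkg* (NEMO), the scaffold of the kinase that releases NF-kB, fell from 15.9 ± 1.3 to 11.1 ± 0.23 FPKM (0.0055). *Tnfaip3* (A20), another inhibitor, did not pass (61.0 ± 2.2 and 73.5 ± 11 FPKM, adjusted p = 0.17, and 0.037 without Ako2273M1). The calls of *Tnip3* and *Ikbkg* held with any library left out. Those of *Nfkb2* and *Traf1* ended without Ako2272M1 (adjusted p = 0.067 and 0.10), that of *Traf1* also without Wt2260M1, Wt2261M1 or Ako2271M1 (0.051 to 0.072), and that of *Nfkbia* without each library but Wt2260M1 (0.065 to 0.15).

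Of 26 tested immediate early and AP-1 genes, 9 were higher and 4 lower (median change 0.13). *Egr1*, a transcription factor induced within minutes of stimulation, was at 2.31, 2.94 and 2.59 FPKM in wildtype and at 5.81, 4.56 and 4.64 FPKM in *Mirc11-/-* libraries, 1.92-fold higher (adjusted p = 0.0058). *Batf*, an AP-1 partner of IRF factors, rose from 46.0 ± 3.6 to 66.3 ± 2.5 FPKM (0.0058), and *Klf2*, a transcription factor that restrains macrophage activation, from 4.19 ± 0.83 to 6.94 ± 0.52 FPKM (0.016). *Dusp1* and *Dusp2*, phosphatases that switch off MAP kinases, rose from 68.6 ± 5.7 to 90.7 ± 4.8 FPKM and from 23.1 ± 5.4 to 37.8 ± 1.3 FPKM (0.017 and 0.022). *Fos* fell from 27.7 ± 0.96 to 21.3 ± 2.1 FPKM (0.021), and the antiproliferative gene *Btg1* from 59.5 ± 6.3 to 43.8 ± 1.6 FPKM (0.016). *Egr1* and *Batf* kept their calls with any library left out. *Klf2* lost its call without Ako2272M1 (adjusted p = 0.071), *Btg1* without Ako2271M1 or Ako2272M1 (0.060 and 0.071), *Dusp1* without Wt2260M1, Ako2271M1 or Ako2272M1 (0.053 to 0.087), *Dusp2* without Wt2260M1, Ako2271M1, Ako2272M1 or Ako2273M1 (0.062 to 0.087) and *Fos* without Wt2260M1, Wt2261M1, Ako2271M1 or Ako2272M1 (0.056 to 0.091).

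Receptors and transcription factors of macrophages moved in both directions. *Csf1r*, the receptor of M-CSF, was at 479, 465 and 471 FPKM in wildtype and at 375, 395 and 373 FPKM in *Mirc11-/-* libraries, 1.24-fold lower (adjusted p = 0.020). Of 17 tested markers of macrophage identity 4 were called, *Mertk* and *Cx3cr1* among them and all lower, while the list's median change was 0.01. *Irf8*, a factor of monocyte and macrophage development, rose from 179 ± 12 to 234 ± 4.4 FPKM (0.012), and the kinase *Jak3* from 14.4 ± 1.4 to 20.4 ± 1.0 FPKM (0.0098). *Il13ra1*, a receptor chain for IL-4 and IL-13, fell from 10.4 ± 0.85 to 6.81 ± 0.89 FPKM (0.012). *Il13ra1* kept its call with any library left out, *Irf8* and *Jak3* lost theirs without Ako2272M1 (adjusted p = 0.075 and 0.053), *Csf1r* without Wt2260M1, Ako2271M1, Ako2272M1 or Ako2273M1 (0.052 to 0.083) and *Cx3cr1* without each library but Wt2261M1 (0.087 to 0.13).

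Secreted proteases, their inhibitors and matrix genes moved both ways. *Mmp13*, a collagenase, was at 416, 406 and 445 FPKM in wildtype and at 751, 701 and 668 FPKM in *Mirc11-/-* libraries, 1.67-fold higher (adjusted p = 0.0016). *Slpi*, an inhibitor of neutrophil elastase that is induced by LPS, was at 355, 429 and 232 FPKM in wildtype and at 145, 127 and 147 FPKM in *Mirc11-/-* libraries, 2.43-fold lower (0.01). *Mmp8*, another collagenase, fell from 12.4 ± 2.2 to 7.49 ± 1.0 FPKM (0.018). *Tgfbi*, a matrix protein, fell from 304 ± 12 to 181 ± 27 FPKM (0.0071), and *Pmp22*, a membrane protein, from 17.2 ± 4.6 to 6.23 ± 0.69 FPKM (0.0047). *Enpp2* (autotaxin), which makes lysophosphatidic acid, rose 3.88-fold, from 0.880 ± 0.14 to 3.42 ± 0.11 FPKM (0.00023). Of 31 tested proteases and inhibitors 6 were higher and 4 lower, and of 24 growth factor and matrix genes 1 was higher and 6 lower. The call of *Slpi* ended without Ako2272M1 (adjusted p = 0.053) and that of *Mmp8* without Ako2271M1 or Ako2272M1 (0.065 and 0.082). The calls of *Mmp13*, *Tgfbi*, *Pmp22* and *Enpp2* held with any library left out. *S100a8*, like *Mmp8* a neutrophil marker that stimulated macrophages can also make, was at 56.8, 73.1 and 40.6 FPKM in wildtype and at 30.6, 27.7 and 27.3 FPKM in *Mirc11-/-* libraries (adjusted p = 0.02), and its call ended without Wt2260M1, Ako2271M1, Ako2272M1 or Ako2273M1 (0.055 to 0.083). *Csf3r*, the third called neutrophil marker, rose from 44.1 ± 3.3 to 57.9 ± 1.2 FPKM (0.012), a call that ended without Ako2272M1 (0.067). Of 10 endothelial markers, 3 were tested, and their sum was between 28.3 and 29.5 FPKM for wildtype and between 27.3 and 29.3 FPKM for *Mirc11-/-*. *Pecam1*, which leukocytes also carry, rose from 4.23 ± 0.35 to 7.75 ± 0.32 FPKM and *Eng* fell from 17.9 ± 0.51 to 13.0 ± 0.56 FPKM (adjusted p = 0.00091 and 0.0039), while *Cdh5* lay at 0.105 FPKM at most. Of 10 dendritic cell markers, 2 were tested. The sum of the list was between 17.2 and 22.2 FPKM for wildtype and between 18.8 and 20.2 FPKM for *Mirc11-/-*. *Batf3* rose from 1.74 ± 0.21 to 2.60 ± 0.26 FPKM (0.025), a call that ended without Wt2261M1, Ako2272M1 or Ako2273M1 (0.070 to 0.11). The other tested marker was not called, with a log2 change of -0.08. The part of other cell types in the results was not tested.

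Single genes of cytosolic danger sensing and complement were called. Of 26 tested genes of the NADPH oxidase and the inflammasome, 5 were higher, 1 lower and 20 not called (median change 0.09). *Tmem173* (STING), which senses cyclic dinucleotides, rose from 11.9 ± 1.6 to 19.7 ± 2.0 FPKM (adjusted p = 0.0097), and *Pycard* (ASC), the inflammasome adaptor, from 17.3 ± 2.2 to 26.6 ± 2.9 FPKM (0.015). *Cd55*, which protects cells from complement, was at 7.30, 8.26 and 10.8 FPKM in wildtype and at 17.8, 17.5 and 20.0 FPKM in *Mirc11-/-* libraries, 2.10-fold higher (0.0039). *Cfp* (properdin), a secreted stabilizer of complement, rose from 371 ± 24 to 506 ± 44 FPKM (0.020). The integrin chains *Itgal* and *Itgax* moved in opposite directions, from 268 ± 24 to 360 ± 16 FPKM (0.016) and from 4.71 ± 0.60 to 2.82 ± 0.35 FPKM (0.012). *Cd55* kept its call with any library left out. *Tmem173*, *Pycard* and *Itgax* lost theirs without Ako2272M1 (adjusted p = 0.052, 0.067 and 0.058), *Cfp* without Wt2261M1, Ako2272M1 or Ako2273M1 (0.056 to 0.094) and *Itgal* without Wt2260M1, Wt2261M1, Ako2271M1 or Ako2272M1 (0.055 to 0.087).

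The remaining lists covered further metabolism, signalling and cell types. *Ptger4*, a receptor for prostaglandin E2 that raises cyclic AMP, rose from 7.55 ± 0.97 to 12.3 ± 0.54 FPKM (adjusted p = 0.0058), whereas *Ptger2*, another such receptor, fell from 7.05 ± 0.83 to 5.01 ± 0.25 FPKM (0.020). With *Cyp4f18* these were the called genes among 16 of prostaglandins, leukotrienes and P450 enzymes. *Cdkn1a* (p21), an inhibitor of cell cycle kinases, fell from 533 ± 38 to 412 ± 24 FPKM (0.024) and was the 1 called gene of 19 in the cell cycle list. *Man2b1*, a lysosomal mannosidase, fell from 78.9 ± 2.3 to 63.5 ± 2.8 FPKM (0.016), and 1 further gene of 37 in the lysosome list was higher. *Ndufs4*, a subunit of complex I, rose from 22.2 ± 1.2 to 27.3 ± 0.91 FPKM (0.020) as the 1 called gene of 48 of the respiratory chain. The call of *Ptger4* held with any library left out, that of *Ptger2* ended without Wt2260M1, Wt2261M1, Ako2271M1 or Ako2272M1 (0.067 to 0.087), and those of *Cdkn1a*, *Man2b1* and *Ndufs4* each ended without 3 or 4 single libraries (up to 0.094). Of 30 genes of the Jak-Stat pathway and its regulators, 6 were higher and 3 lower (30.0% called, against 9.52% of all genes), and of 26 Fc receptor and complement genes, 3 were higher and 2 lower (19.2%). Single genes were called among 27 of sterol and fatty acid synthesis (lower) and 23 of the unfolded protein response (higher). Of 28 M2 markers, 7 were tested, of which *Arg1* and *Stab1* were lower. Lists of B cell, T and NK cell, and mast cell markers had 1 tested gene each, none of them called by limma, with 1, 0 and 0 at an unadjusted p under 0.05.

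Further genes with large changes belonged to no list. *Grap*, an adaptor of receptor signalling, rose from 9.44 ± 1.3 to 22.99 ± 1.6 FPKM (adjusted p = 0.0007), and *Cnn2*, an actin-binding calponin, from 13.9 ± 1.1 to 28.9 ± 2.4 FPKM (0.0007). *Stac2* fell from 4.52 ± 2.0 to 0.879 ± 0.11 FPKM (0.0081) and the kinase *Sgk1* from 22.03 ± 2.2 to 10.5 ± 2.2 FPKM (0.0055). *S100a10*, a partner of annexin A2, fell from 43.7 ± 3.3 to 23.8 ± 3.4 FPKM (0.0038), *Cd1d1*, which presents lipids to NKT cells, from 21.7 ± 3.6 to 11.7 ± 0.83 FPKM (0.0058) and *Maged1* from 20.3 ± 3.5 to 11.1 ± 0.22 FPKM (0.0056). These 7 genes kept their calls with any library left out.

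Called genes were more frequent on chromosome 8, which carries the cluster, than elsewhere. On chromosome 8, 105 of 548 tested genes were called (19.2%), 48 higher and 57 lower. On the other chromosomes 822 of 9145 were called (8.99%), and the next highest share was 12.4%, on X. Of the 38 called genes that changed by 1 or more, 11 lay on chromosome 8. *Cacna1a*, a calcium channel subunit of neurons, was at 0.196, 0.312 and 0.352 FPKM in wildtype and at 3.92, 3.54 and 3.70 FPKM in *Mirc11-/-* libraries, 13.0-fold higher (adjusted p = 4.13e-05). *Fam32a* was at 39.1, 36.1 and 35.4 FPKM in wildtype and at 95.6, 98.8 and 99.5 FPKM in *Mirc11-/-* libraries, 2.66-fold higher (4.13e-05). *Ocel1* rose 2.74-fold and *Hsh2d*, a lymphocyte adaptor, 10.3-fold from 0.292 ± 0.094 FPKM (0.00023 and 0.00014). *Mfap3l* was at 4.36, 5.22 and 4.46 FPKM in wildtype and at 0.730, 0.542 and 0.640 FPKM in *Mirc11-/-* libraries, 7.34-fold lower (4.86e-05). *B3gnt3*, a glycosyltransferase, fell 5.2-fold (7.68e-05), and *Cyp4f18*, which inactivates leukotriene B4, from 1.94 ± 0.38 to 0.0847 ± 0.026 FPKM (0.00053). *Acsl1*, *Lpl*, *Gdf15*, *Hmox1*, *Prdx2*, *March1*, *Klf2*, *Irf8*, *Jak3*, *Ankrd37* and *Man2b1*, described above, also lie on chromosome 8. All *Mirc11-/-* libraries carry the chromosome with the deletion, so the loss of the microRNAs and any other sequence linked to it cannot be told apart for these genes. Without chromosome 8, 739 of 9187 genes were called, 363 of them higher.

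**Figure D4:**
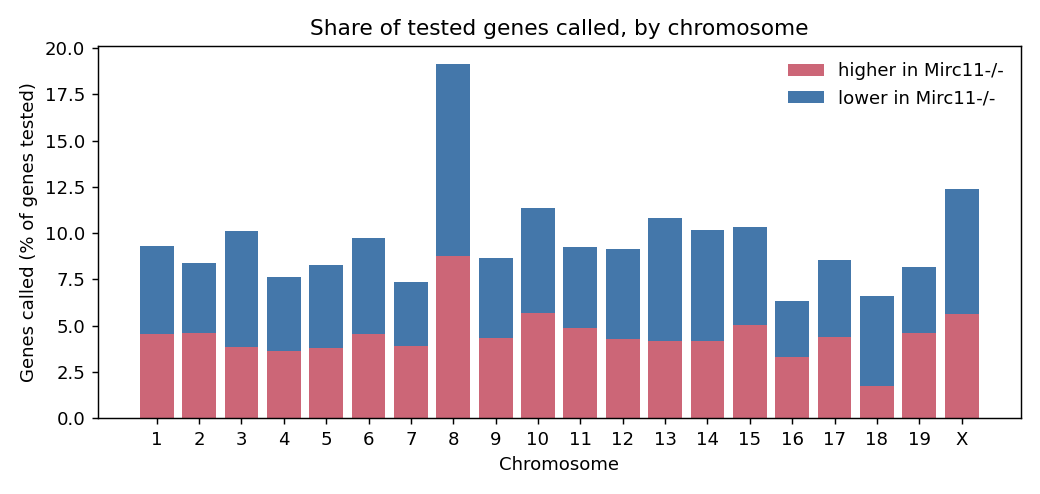
Bars give the share of tested genes on each chromosome that were called in *Mirc11-/-* against wildtype M1 cells, in percent, stacked as higher (red) and lower (blue). Chromosome 8, which carries the cluster, stands at 19.2%, and all others lie between 6.31% and 12.4%.

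Sites for the deleted microRNAs were sought in the longest annotated 3' UTR of each gene (GENCODE M21, GRCm38), which 9400 of the tested genes had. An 8mer is the reverse complement of bases 2 to 8 followed by A, and was searched on the UTR strand only. Of 1816 tested genes with an 8mer for at least 1 of the 3 microRNAs, 99 were higher (5.45%) and 82 lower (4.52%). Of 5615 genes with neither an 8mer nor a match to bases 2 to 8 alone, 242 were higher (4.31%) and 294 lower (5.24%). The median change was -0.02 in both groups, and the first had longer UTRs, with a median of 2400 against 716 bases. By microRNA, 8mer genes were higher in 36 of 644 cases (5.59%) for miR-23a, 41 of 566 (7.24%) for miR-27a and 36 of 821 (4.38%) for miR-24, and lower in 4.97%, 4.77% and 4.51%.

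Of 204 genes with 8mers for at least 2 of the microRNAs, 13 were higher (6.37%) and 13 lower (6.37%). Of all genes with a UTR, 4.56% were higher and 5.06% lower. The class was evenly split, and its 13 lower genes are not named here. The 3 higher genes with the smallest p, chosen after their values were seen, were *Marcksl1*, *Nek6* and *Lpcat1*. *Marcksl1*, an actin-binding protein, was at 215, 187 and 201 FPKM in wildtype and at 407, 380 and 378 FPKM in *Mirc11-/-* libraries, 1.93-fold higher (adjusted p = 0.00059). *Nek6*, a mitotic kinase with 8mers for all 3, was at 8.77, 8.61 and 8.74 FPKM in wildtype and at 15.8, 14.9 and 13.7 FPKM in *Mirc11-/-* libraries, 1.70-fold higher (0.00082). Its UTR has 9216 bases, against a median of 1147 over all genes with a UTR, and a longer UTR offers more places for a match. *Lpcat1*, which remodels phospholipids, rose from 12.5 ± 0.61 to 17.8 ± 0.29 FPKM (0.0025). All 3 kept their calls with any library left out. Their sites are shown, with the 8mer in capitals, beside those of 2 immune inhibitors, *Cblb* and *Tnfaip3*, that also hold a miR-23a 8mer.
Marcksl1, miR-23a: gggaggtctgtAATGTGAAaca
Marcksl1, miR-24: ttctcaaccccCTGAGCCAgaa
Nek6, miR-23a: gtacctactgaAATGTGAAcct
Nek6, miR-23a: actaacttataAATGTGAAttt
Nek6, miR-27a: taataggattaACTGTGAAgac
Nek6, miR-24: gtgcgaaaaatCTGAGCCAggt
Lpcat1, miR-23a: ggtatggatgaAATGTGAAcac
Lpcat1, miR-27a: cgcgcatcagaACTGTGAAtgt
Cblb, miR-23a: gagctcttcatAATGTGAActt
Tnfaip3, miR-23a: ttttcattgttAATGTGAAatg
*Cblb*, a ubiquitin ligase, did not pass (10.3 ± 1.3 and 12.2 ± 1.3 FPKM, adjusted p = 0.21), nor did *Itch*, another such ligase (12.9 ± 0.42 and 12.6 ± 0.43 FPKM, adjusted p = 0.68). Of 29 tested genes listed from general knowledge as targets of the cluster, 2 were higher and 2 lower (13.8% called, against 9.52% of all genes), with a median change of -0.07. *Ppif*, a mitochondrial cyclophilin, rose from 5.30 ± 0.23 to 7.64 ± 0.59 FPKM (0.0071) and *Ikzf1*, a lymphoid transcription factor, from 27.9 ± 2.4 to 35.1 ± 1.3 FPKM (0.026), whereas *Csf1r* and *Tgfbr1*, a receptor for TGF-beta, were lower (0.020 and 0.015). *Ppif* kept its call with any library left out. *Ikzf1* lost it without Wt2260M1, Wt2261M1, Ako2271M1 or Ako2272M1 (adjusted p = 0.077 to 0.12), *Tgfbr1* without Wt2260M1, Wt2261M1 or Ako2272M1 (0.052 to 0.063), and *Csf1r* without Wt2260M1, Ako2271M1, Ako2272M1 or Ako2273M1 (0.052 to 0.083).

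Some calls also depended on other choices. In the libraries whose labels agree, with 1 wildtype M1 library, *Lpin2*, *Soat1*, *March1*, *Mertk*, *Stab1*, *Sesn2*, *G6pdx*, *Il27*, *Il18*, *Egr1*, *Dusp1*, *Klf2*, *Fos*, *Nfkbia*, *Csf1r*, *Cx3cr1*, *Irf8*, *Tgfbr1*, *P4ha1*, *Pycard*, *Cfp*, *Batf3*, *Man2b1* and *Ndufs4* lost theirs as well (adjusted p from 0.053 for *Egr1* to 0.39 for *Lpin2*). With all genes above 0 kept in the test, calls ended for 41 of the named genes, *Nos2* and *Gstt1* among them, with adjusted p up to 0.13 for *Clec7a*.

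Finally, the effect of the deletion in M1 was tested against that in M2. In a fit of all 12 libraries, the difference was called for 192 of the 9735 genes (1.97%), of which 150 were also called in M1 itself. *Acsl1* fell by 1.73 on the log2 scale in M1 and had a change of 0.29 in M2 (difference -2.01, adjusted p = 4.87e-05). *Arg1* fell by 1.03 in M1 and rose by 1.00 in M2 (adjusted p = 0.0073), with a difference of -2.04 (adjusted p = 0.0016). *Hmox1* had changes of -1.17 and 0.20 (difference -1.37, 0.00085), and *Psat1* of 1.66 and 0.18 (difference 1.48, 0.00071). For *Cacna1a* (1.88 and 2.06), *Marcksl1* (0.95 and 0.98), *Wdfy1* (-1.29 and -1.59) and *H2-Ab1* (-0.72 and -0.52) the difference did not pass (adjusted p = 0.43, 0.97, 0.23 and 0.69).

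**Figure D5:**
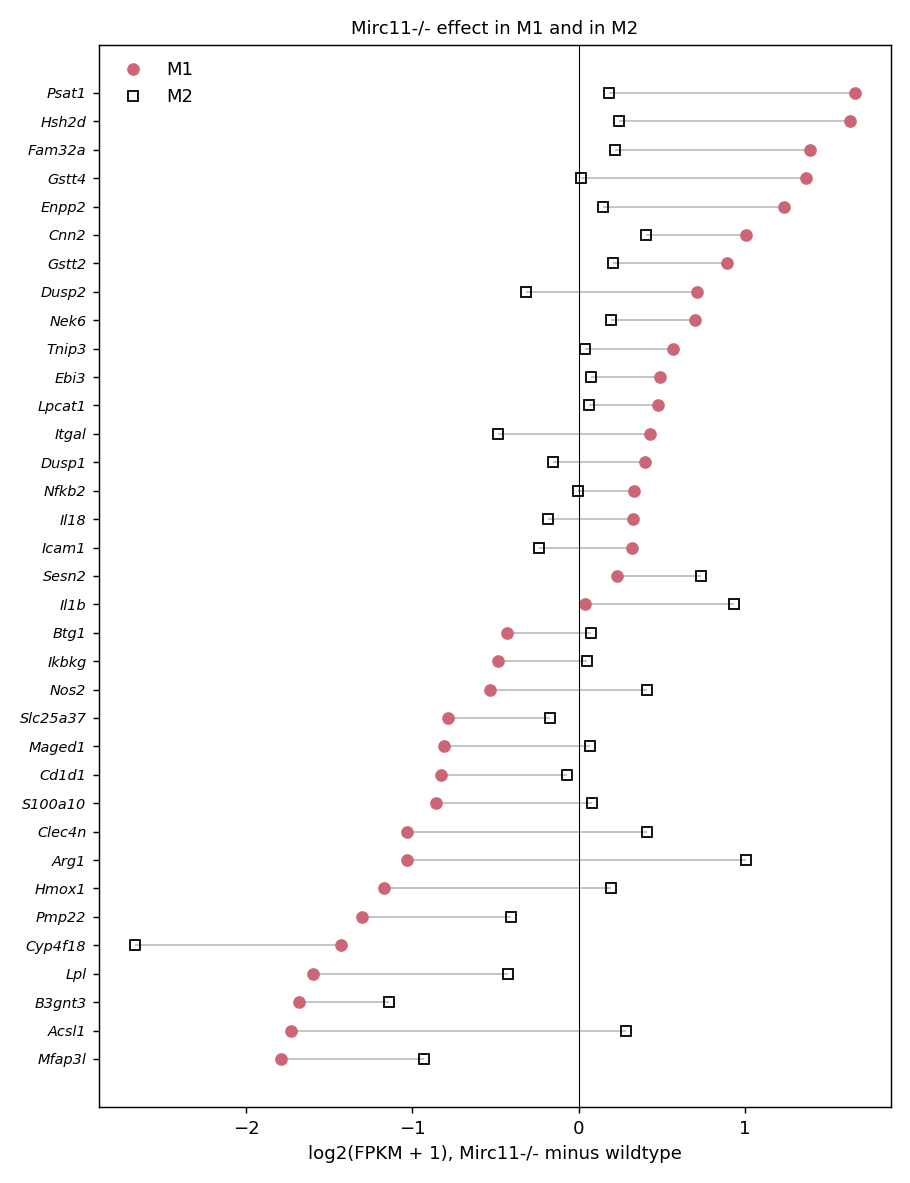
Each row is a named gene whose change differed between M1 and M2, with the change in log2(FPKM + 1), *Mirc11-/-* minus wildtype, in M1 as a red circle and in M2 as an open square. Many of these genes were named for their change in M1, which favours large differences. *Acsl1* lies at -1.73 in M1 and 0.29 in M2, and *Cyp4f18* at -1.43 and -2.67. The scale shrinks changes of genes near 0 FPKM.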

How the data were processed

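RNA from 12 macrophage cultures was sequenced from NEBNext Ultra II libraries. The authors aligned reads with STAR 2.5.1 to mm9 and deposited FPKM per gene made with Cufflinks. Annotation, filters and strand setting are not given in the sources used here, and without strand, antisense and overlapping genes cannot be separated. The authors also deposited tables of their own fold changes and adjusted p-values per transcript, which were not used. From the FPKM, log2(FPKM + 1) was computed for the 9735 genes that averaged 1 FPKM or more across the 6 M1 libraries, and genotypes were compared with limma 3.58.1 in R 4.3.3 (trended moderated variances, two-sided, Benjamini-Hochberg at 0.05). The difference between M1 and M2 was a contrast fitted to all 12 libraries on the same genes. The pipeline was tested on simulated data. The genes, members and 40 lists were chosen with earlier results of these data known. Named genes were up to 10 per direction with the largest change among called genes without overlap or a 0, up to 15 with at least 20 FPKM in the higher group, up to 4 members of each list by smallest p, called or not, and a set of cytokines, targets and markers, of which the text gives part. A listed 0 may stand for a missing estimate: *Fth1*, which every cell uses, was at 0 in all 6 libraries, and 29 tested genes, all named as small RNA genes, had a 0. Of 23863 genes, 22451 matched RefSeq by symbol and 1264 by synonym. Alternatives were other pseudocounts, filters, scalings and sets of libraries. Some items are not reported here.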

Additional observations from a re-analysis of the deposited data

Results flagged for a closer look

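The effect of the deletion on 35 named genes differed between M1 and M2 in the contrast of limma over 12 libraries, at adjusted p-values between 4.87e-05 and 0.046. Values are the M1 change minus the M2 change on the log2(FPKM + 1) scale. Genes were filtered on M1 levels only, and this scale shrinks changes of genes near 0 FPKM in M2. Wildtype and *Mirc11-/-* means in M2 were 0.0411 and 0.157 FPKM for *Enpp2* and 0.104 and 0.312 FPKM for *Hsh2d*. For *Gstt4* they were 0.0348 and 0.0443 FPKM. Many of the genes were named for their change in M1, which favours large differences. In genes of metabolism and stress the difference was -2.01 for *Acsl1*, -1.17 for *Lpl*, -2.04 for *Arg1*, -0.94 for *Nos2*, -1.37 for *Hmox1*, -0.61 for *Slc25a37*, -0.51 for *Sesn2*, 1.48 for *Psat1*, 0.69 for *Gstt2*, 1.35 for *Gstt4*, 1.09 for *Enpp2* and 0.41 for *Lpcat1*. In immune genes it was -1.45 for *Clec4n*, -0.89 for *Il1b*, -0.76 for *Cd1d1*, -0.54 for *Ikbkg*, 0.42 for *Ebi3*, 0.51 for *Il18*, 0.56 for *Icam1*, 0.34 for *Nfkb2*, 0.53 for *Tnip3* and 0.91 for *Itgal*. In signalling and structural genes it was 0.55 for *Dusp1*, 1.03 for *Dusp2*, -0.50 for *Btg1*, -0.90 for *Pmp22*, 0.60 for *Cnn2*, -0.94 for *S100a10*, -0.87 for *Maged1* and 0.51 for *Nek6*. On chromosome 8 it was also -0.86 for *Mfap3l*, 1.24 for *Cyp4f18*, 1.39 for *Hsh2d*, 1.17 for *Fam32a* and -0.54 for *B3gnt3*. *Il1b* was not called in M1 (change 0.04) and had a change of 0.93 in M2. *Cyp4f18* was lower in both, with a change on this scale of -2.67 in M2 and -1.43 in M1. Its mean fell from 7.13 to 0.272 FPKM in M2 and from 1.94 to 0.0847 FPKM in M1. Adding 1 before the log shrinks changes at such low levels, so the 2 changes do not show a larger fold in M2.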

How the results depend on the processing

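Of 116 named genes called in M1, 48 kept their call in each of 17 alternatives that tested them, and none of the 116 changed sign. Calls of 66 ended without library Ako2272M1, of 30 in the 6 libraries whose labels agree, and of 41 without the filter on low values. The count of 927 called genes was 1431 (799 lower) with variances from all 12 libraries, 517 (246 higher, 271 lower) with the libraries whose labels agree (1 wildtype M1 library), and 583 (263 lower) without the filter. With single libraries left out it ranged from 207 to 910 (115 to 439 higher, 92 to 471 lower). The 192 called differences between M1 and M2 became 60 with the libraries whose labels agree and 83 to 312 with single libraries left out. Of 14 named genes not called, *Il10* passed in 6 alternatives, *H2-DMb1* in 5, and *Abca1* and *Tnfaip3* in 1 each. Among the others, the log2 change of 0.06 for *B2m* became -0.0588 and that of -0.04 for *Itch* became 0.0277 in the libraries whose labels agree, and that of *Cd86* became 0.0022 after median-of-ratios scaling. With single libraries left out, changes ranged from -0.0219 to 0.2358 for *Il6*, from -0.0450 to 0.1379 for *Il1b*, from -0.115 to 0.318 for *Il12b* and from -0.0454 to 0.0084 for *Cd86*. The cause of these shifts was not tested.

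With the title number as replicate block, 164 differences were called instead of 192. Same-numbered M1 and M2 libraries correlated at -0.308 to 0.227 in their deviations, which does not meet the rule for pairs, and the labels do not say what the numbers stand for. For M1 alone no paired analysis was possible because wildtype and *Mirc11-/-* titles share no number. Depth is unknown in reads, so no counting limits are given.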
